A study of Mus musculus with 12 samples.

Results

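CIN-only H3K27ac regions inside genes were stretches of chromatin that carried an acetylation peak in both CIN lists and none in the matched non-CIN lists, and that lay within a protein-coding gene away from its promoters. In each H3K27ac list, peaks up to 500 bp apart were joined. CIN peaks that met any peak of the non-CIN list with their own replicate number were dropped, and what the remaining CIN peaks of replicates 1 and 2 had in common was retained. The members were chosen by these peak calls and by position: the centre had to be inside a protein-coding gene of the GENCODE mm10 annotation and outside the window from 1 kb upstream to 100 bp downstream of any TSS. Of 4182 CIN-only regions, 2015 (48.2%) met this rule, 2010 lay between genes and 157 had their centre at a promoter. They made up 10.7% of the 18920 regions inside genes and off promoters that both CIN lists shared. Because the presence of H3K27ac in CINs and its absence in non-CINs chose the members, that contrast is described below without a test.

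H3K27ac marks the nucleosomes that flank active enhancers and promoters, and H3K27me3, laid down on the same lysine by Polycomb complexes, marks repressed ones. Much of the distal regulatory DNA of neuronal genes sits in introns, and an enhancer within an intron may act on its host gene or on a neighbor. Cortical interneurons (CINs) are GABAergic cells that arise in the subpallium under DLX, LHX and other homeodomain transcription factors and migrate into the cortex before birth.

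Both populations came from the neocortex of *Gad67-GFP* heterozygote pups at postnatal day 2, so they shared the genotype, and each sample pooled tissue from several litters. CINs were the sorted GFP+ cells, in which GFP marks GABAergic cells, and non-CINs were the GFP- cells, a mixture of glutamatergic neurons and glia. Native ChIP, in which chromatin is digested with MNase and not cross-linked, had been carried out against either mark, with 2 biological replicates per population. The 4 H3K27ac lists held 46040 to 62505 broad peaks, with more in replicate 1 than in replicate 2 of both populations. Of 12 fixed CIN marker genes, 9 had an H3K27ac peak at a promoter in each CIN list and 2 in each non-CIN list. Of 20 markers of glutamatergic neurons 15 and 11 had one in the CIN lists, against 11 and 12 in those of non-CINs. Of 23 markers of glia and vessels, 15 had one in either CIN list, against 16 and 15 for non-CINs. Promoter peaks at markers of other cells were thus present in the GFP+ lists, and their part in the results was not tested. Among these markers, CIN-only regions lay inside 2 of 12 CIN genes, 4 of 20 glutamatergic genes and 0 of 23 genes of glia and vessels, against 5.89% of all protein-coding genes. Long genes held such regions more often, and only 1, 6 and 5 genes of these lists were over 100 kb, of which 1, 3 and 0 held one, against 33.2% of all genes of that length.

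The central 200 bp of selected members are shown first, from the GRCm38 (mm10) reference. Capitals mark 3 cores on either strand, the homeodomain core TAATTA, the SOX core CTTTGT (or ACAAAG) and the MEIS core CTGTCA (or TGACAG). The first 4 were the strongest members by their rank in both CIN lists, and 3 of them held a homeodomain core:
Myo3a, chr2:22294212-22294411, plus strand: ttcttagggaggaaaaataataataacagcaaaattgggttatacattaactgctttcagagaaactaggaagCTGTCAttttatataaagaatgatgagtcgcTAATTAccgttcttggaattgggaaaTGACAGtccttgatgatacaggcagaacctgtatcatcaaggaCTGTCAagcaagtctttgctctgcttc
Shb, chr4:45490180-45490379, plus strand: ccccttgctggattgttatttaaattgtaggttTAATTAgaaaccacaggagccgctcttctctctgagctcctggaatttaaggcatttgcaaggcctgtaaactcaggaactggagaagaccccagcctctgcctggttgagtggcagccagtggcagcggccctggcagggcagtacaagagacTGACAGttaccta
Cacna2d3, chr14:28948773-28948972, plus strand: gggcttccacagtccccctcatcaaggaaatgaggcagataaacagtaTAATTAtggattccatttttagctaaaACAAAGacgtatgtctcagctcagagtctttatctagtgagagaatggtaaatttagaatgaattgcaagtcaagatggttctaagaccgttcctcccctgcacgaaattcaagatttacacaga
Enox1, chr14:77593642-77593841, plus strand: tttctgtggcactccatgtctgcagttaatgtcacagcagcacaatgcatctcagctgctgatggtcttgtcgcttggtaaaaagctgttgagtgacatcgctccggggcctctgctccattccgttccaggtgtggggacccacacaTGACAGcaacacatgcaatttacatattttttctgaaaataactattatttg
The next 3 were among the members with most homeodomain cores, and none had a repeat-masked base in this window:
Scel, chr14:103587279-103587478, plus strand: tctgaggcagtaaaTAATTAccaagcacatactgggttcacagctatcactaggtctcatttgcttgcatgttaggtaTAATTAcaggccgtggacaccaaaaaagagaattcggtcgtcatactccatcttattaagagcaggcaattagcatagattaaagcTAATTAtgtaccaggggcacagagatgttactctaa
Crtac1, chr19:42312250-42312449, plus strand: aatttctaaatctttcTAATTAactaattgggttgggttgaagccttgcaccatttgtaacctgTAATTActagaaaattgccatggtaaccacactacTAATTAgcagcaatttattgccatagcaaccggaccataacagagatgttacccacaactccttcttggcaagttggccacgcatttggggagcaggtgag
Adk, chr14:21439732-21439931, plus strand: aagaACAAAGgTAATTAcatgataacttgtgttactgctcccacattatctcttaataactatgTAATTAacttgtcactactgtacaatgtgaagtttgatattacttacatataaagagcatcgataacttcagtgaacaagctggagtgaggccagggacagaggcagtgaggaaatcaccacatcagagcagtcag
The last 3 were the strongest members of *Nrxn3*, one of the 2 genes with most members, and of *Gad2* and *Dlgap1*, which the study names. The *Dlgap1* member was not matched to the element that the study tested:
Nrxn3, chr12:90113657-90113856, plus strand: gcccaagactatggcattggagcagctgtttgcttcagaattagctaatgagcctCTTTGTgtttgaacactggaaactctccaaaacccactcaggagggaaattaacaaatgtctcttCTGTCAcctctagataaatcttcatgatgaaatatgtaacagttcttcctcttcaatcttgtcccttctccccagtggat
Gad2, chr2:22645753-22645952, plus strand: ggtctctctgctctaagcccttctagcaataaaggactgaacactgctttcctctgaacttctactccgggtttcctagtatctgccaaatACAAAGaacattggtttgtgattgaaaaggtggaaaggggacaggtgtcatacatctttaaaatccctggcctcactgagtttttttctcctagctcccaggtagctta
Dlgap1, chr17:70022707-70022906, plus strand: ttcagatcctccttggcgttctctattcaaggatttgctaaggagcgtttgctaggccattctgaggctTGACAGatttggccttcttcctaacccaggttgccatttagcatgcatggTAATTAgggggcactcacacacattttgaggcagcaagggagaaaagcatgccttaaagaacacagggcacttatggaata

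Strength was read as the percentile of fold enrichment over input within each CIN list. The strongest member lay in intron 7 of *Myo3a*, a class III myosin gene next to *Gad2*, at chr2:22293017-22295607. Its fold enrichment was 7.05 in replicate 1 and 9.39 in replicate 2, or percentiles 96.4 and 96.5. The nearest peak of non-CINs was 263 kb away. The second was in the first intron of *Shb*, which encodes an SH2-domain adaptor, with a fold enrichment of 6.91 and 8.16 and percentiles of 95.7 and 91.9. *Cacna2d3*, an auxiliary subunit of voltage-gated calcium channels, held the third in intron 34, at percentiles 92.8 and 91.4. An *Enox1* member in intron 11 followed, at percentiles 97.2 and 89.3. These 4 members were high in both CIN lists.

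Of the next 6 by the lower of their 2 percentiles, one lay in *Gabbr2*, a subunit of the metabotropic GABA receptor, at percentiles 89.5 and 88.7. *Tiam2*, an activator of the GTPase Rac, had a member of 5738 bp at percentiles 87.1 and 88.2. Further members were in *Ccdc88a*, which encodes an actin-binding protein, *Pde4dip*, which encodes an anchor for a phosphodiesterase, and the growth factor gene *Tgfb3*. Their lower percentiles ran from 85.7 to 86.4, and all 10 of the strongest members were above the 85th percentile of both lists.

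Most members were weaker than these. The lower percentile had a median of 27.03 and quartiles of 13.2 and 45.4, against a median of 57.5 for the 14768 common regions inside genes, which were present in all 4 lists. The median was 15.7 for the 1843 non-CIN-only regions inside genes, chosen by the same rule with the populations exchanged and ranked in the non-CIN lists. Of the members, 404 (20.0%) reached the 50th percentile in both lists and 377 (18.7%) were below the 10th in at least one. The percentile was higher in replicate 1 for 1623 members (80.5%), with medians of 54.3 and 31.2. Across members the ranks in both CIN lists correlated with a Spearman's rho of 0.52 (n = 2015), against 0.78 across common regions (n = 14768). Across non-CIN-only regions the rho of the non-CIN lists was 0.165 (n = 1843). Within each class the points share the same 2 libraries. Median length was 354 bp, from 3 bp, where the replicates barely overlapped, to 6112 bp. The longest member, in the transcription factor gene *Sp9*, is named after its value was seen.

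**Figure D1:**
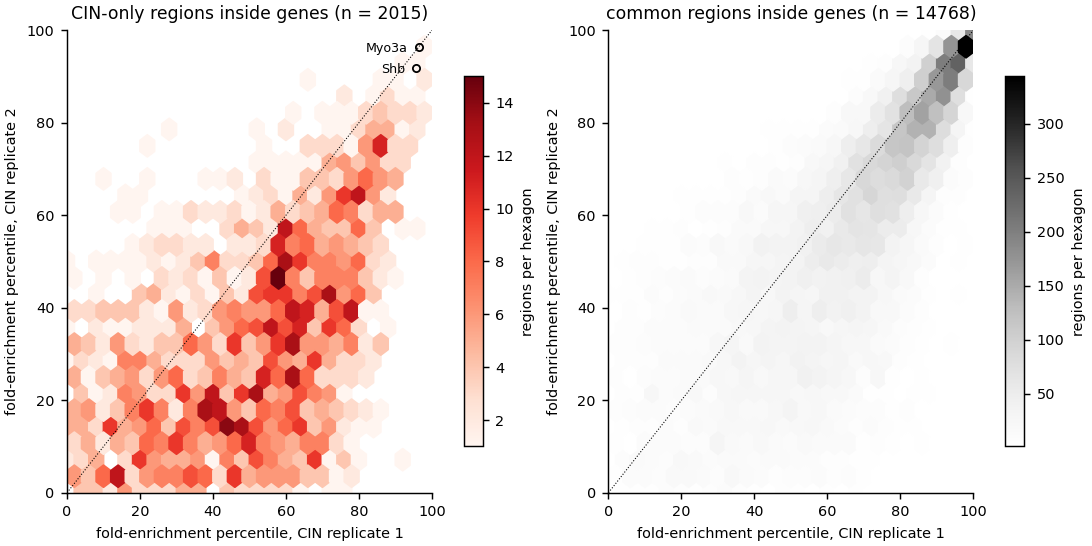
Fold-enrichment percentile of each region in CIN replicate 1 (horizontal axis) and CIN replicate 2 (vertical axis), for 2015 CIN-only (left, red) and 14768 common regions inside genes (right, grey), with color giving the number of regions per hexagon and the dotted line marking equal percentiles. CIN-only regions spread over most of the replicate 1 list (median 54.3) and the lower part of the replicate 2 list (median 31.2). Most of them lie below the line, with *Myo3a* and *Shb* near the upper corner. Common regions lie higher in both lists, with medians of 70.7 and 61.3.

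The members closest to the threshold were separated from a non-CIN peak by a few bases. A *Mpped2* member lay 1 bp and a *Tbc1d4* member 3 bp from the nearest non-CIN peak. Just outside the rule, a region in *Clip2* was not a member because its CIN peaks overlapped a non-CIN peak by 1 bp, and one in *Fam171b* because they did so by 4 bp. In all, 146 members (7.25%) had a non-CIN peak within 1 kb, and 1069 (53.1%) had none within 10 kb. The median distance was 11.1 kb.

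The 2015 members lay in 1292 host genes. At least 1 member was found in 5.89% of the 21951 protein-coding genes, and 3 or more in 161 genes, or 0.733%. These counts depended on the settings. Hosts with 3 or more numbered 54 with a reciprocal overlap of 50% between replicates and 1073 without replicate 2. A single member was present in 904 hosts and 2 members in 227. Hosts were long genes, with a median of 148 kb against 17.4 kb over all protein-coding genes, and the 161 hosts with 3 or more had a median of 348 kb. The share of genes with a member was higher in longer genes. It was 0.543% of genes under 20 kb, 5.22% from 20 to 100 kb, 27.1% from 100 to 300 kb and 54.1% over 300 kb. No gene was called enriched, and the counts of single genes below were not compared with those of genes of like length.

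*Celf4*, an RNA-binding protein gene of 277 kb, and *Nrxn3*, a presynaptic adhesion gene of 1612 kb, each held 12. In *Celf4*, 8 of the 12 fell in intron 2 and the median gap between neighbors was 10.05 kb. The lower percentile of its members ran from 17.9 to 70.1. It held 3 common regions and 1 non-CIN-only region, so CIN-only regions were the larger class there. In *Nrxn3* the members ranged over 1388 kb and 5 introns, beside 12 common regions. Its strongest member, in intron 15, stood at percentiles 93.3 and 76.8, and the weakest had a lower percentile of 1.84.

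*Nav3*, which encodes a microtubule-associated navigator protein, held 11 members, 6 common and 0 non-CIN-only regions. Of these members, 6 were in a part of the gene outside the basic transcripts, so they have no intron number here. *Cacna2d3* held 10 members in 6 introns, 5 common and 0 non-CIN-only regions. Its members' lower percentiles ran from 5.19 to 91.4. *Enox1*, which encodes a cell surface oxidase, held 9, *Auts2*, a neurodevelopmental regulator, 8, and *Arid1b*, a subunit of BAF chromatin remodelers, 8. *Zfp407*, a zinc finger gene, held 7. In *Auts2* and *Arid1b* common regions outnumbered the members, at 13 and 14. Most members of *Auts2* were also outside the basic transcripts, and its 2 introns with a member held 1 each.

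*Fgfr2*, a fibroblast growth factor receptor, and *Gm20388*, a predicted gene model, also held 11 members each, but both annotations are unusually long. *Fgfr2* spans 2961 kb in this annotation and encloses 29 other protein-coding genes, and 5 of its 11 members lay in another coding gene as well. It also held 10 non-CIN-only and 60 common regions. *Gm20388* spans 4435 kb and encloses 71 protein-coding genes. None of its 11 members lay in another coding gene, since predicted genes were taken as hosts only where no other coding gene was present. Both counts cover long stretches of the genome with many genes.

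**Figure D2:**
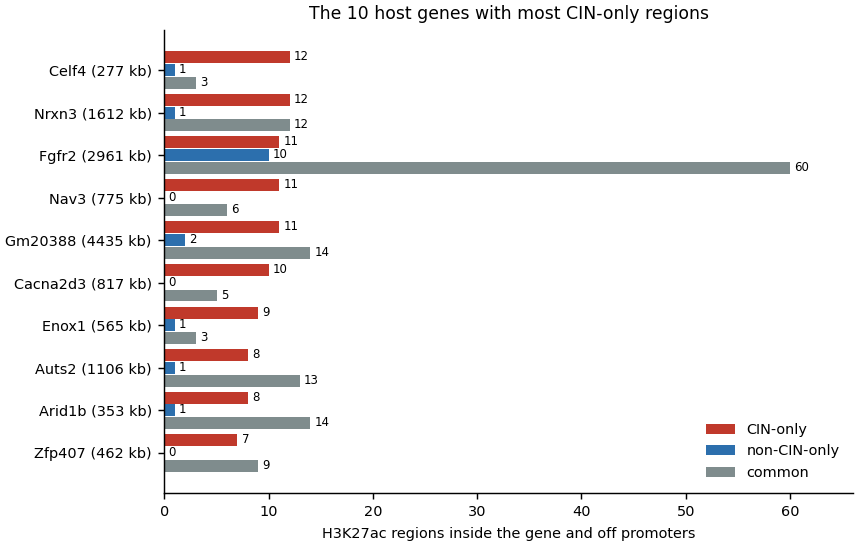
Number of CIN-only (red), non-CIN-only (blue) and common (grey) H3K27ac regions inside each of the 10 host genes with most CIN-only regions, with gene length in brackets. CIN-only regions number 7 to 12 in each of the genes plotted, and non-CIN-only regions 0 to 2 except in *Fgfr2*, which has 10. *Zfp407* is tied at 7 with 5 genes that are not plotted, which hold 0 to 3 non-CIN-only regions, and was taken for the higher median percentile of its members.

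Relative to length, the hosts with most members among those with 3 or more were *Spns2*, a sphingosine-1-phosphate transporter gene, with 7.84 members per 100 kb, and *Chd5*, a chromatin remodeler of neurons, with 5.82. Each had 3 members and neither a common nor a non-CIN-only region inside the gene. The *Chd5* members in intron 2 were parts of the same merged peak in CIN replicate 1, at percentile 73.6, and the weaker stood at 0.233 in replicate 2. Its count of members thus exceeds that of separate peaks. *Metap1d*, a mitochondrial aminopeptidase gene that neighbors *Dlx1*, had 4 members, 5.56 per 100 kb. Its members were strong, with lower percentiles of 34.7 to 78.6, and lay in introns 1, 5, 6 and 8. *Celf4* followed with 4.34 and *Mtss1*, which encodes a membrane-bending protein, with 4.26. All 6 members of *Mtss1* were in intron 3. In *Celf4* and *Mtss1*, too, some neighboring members shared a merged peak in CIN replicate 1.

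Members of one gene often lay in one intron. Among 388 hosts with 2 or more, 190 had 2 or more in the same intron. Of 723 pairs of neighboring members, 309 (42.7%) were in the same intron and 297 (41.1%) had a common region between them, and the median gap was 40.7 kb. A merged CIN peak was shared by 70 members (3.47%) with another member, so these were not separate peaks in both lists. Of the 161 hosts with 3 or more members, 144 also held a common region and 60 a non-CIN-only region, while 15 held neither. Members with 1 host gene and members that lay in several coding genes were both counted, and the latter numbered 52.

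**Figure D3:**
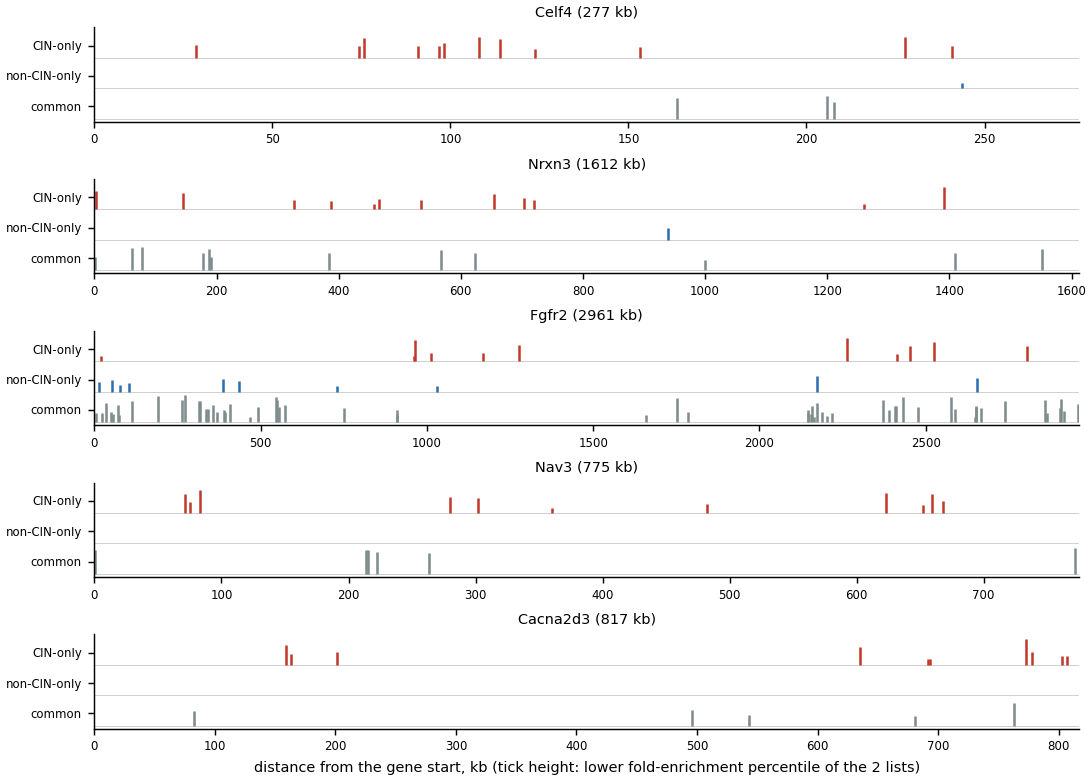
Position of CIN-only (red), non-CIN-only (blue) and common (grey) H3K27ac regions along 5 host genes, by distance from the gene start in kb, with the height of a tick giving the lower fold-enrichment percentile of its 2 lists (CIN lists for CIN-only and common regions, non-CIN lists for non-CIN-only regions). The 12 members of *Celf4* lie mostly between its start and middle, those of *Nrxn3* over 1388 kb, and *Nav3* and *Cacna2d3* hold no non-CIN-only region.

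To determine where members lay within genes, their place was compared with that of the other 2 classes. Gene position beyond the gene and promoter bounds was not part of the rule. In the basic annotation, 1853 members (92.0%) had their centre in an intron, 37 in a coding exon, 50 in a UTR or non-coding exon and 75 outside the basic transcripts. An exon held 4.32% of members and 13.4% of common regions (odds ratio 0.29, 95% interval 0.23 to 0.36, adjusted p = 2.19e-38, two-sided Fisher's exact test). The odds ratio moved to 0.72 with promoters of 2 kb on both sides (3.47% against 4.77%, adjusted p = 0.0175, Fisher's exact test), 0.63 against common regions of like strength and 0.50 for regions wholly inside the gene. Against non-CIN-only regions, at 5.53%, the difference did not pass (odds ratio 0.77, 0.57 to 1.03, adjusted p = 0.0860, Fisher's exact test). It passed with no replicate block (0.71, adjusted p = 0.0134) and with a −log10 q of at least 4 (0.70, adjusted p = 0.0224, Fisher's exact test).

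The first intron held 501 of the 1853 intronic members, or 27.04%. It held 45.2% of 12445 common and 31.4% of 1702 non-CIN-only intronic regions. The share was lower than in common regions (odds ratio 0.45, 0.40 to 0.50, adjusted p = 7.90e-51, Fisher's exact test) and than in non-CIN-only regions (odds ratio 0.81, 0.70 to 0.93, adjusted p = 0.00591). The first contrast was smaller away from promoters: with a promoter window of 2 kb on both sides of a TSS, the shares were 25.1% and 31.7% and the odds ratio was 0.72 (adjusted p = 1.24e-07, Fisher's exact test). It was also smaller against common regions of like strength, at 35.7% (odds ratio 0.67, adjusted p = 3.18e-11, Fisher's exact test). For regions wholly inside the gene the odds ratio was 0.56 (adjusted p = 2.95e-26, Fisher's exact test). With 1 region for each host gene the odds ratio was 0.27 (adjusted p = 7.72e-86, Fisher's exact test). The share of common regions was then 60.2% in place of 45.2%, so this setting also changed the make-up of the common class. The difference from non-CIN-only regions lost its call without replicate 1 (odds ratio 0.99, adjusted p = 0.935), with 1 region for each host gene (0.89, adjusted p = 0.240) and with a −log10 q of at least 4 (0.87, adjusted p = 0.0897, Fisher's exact test). These tests run across regions, which share libraries and are not replicates of a population.

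Host gene length moved with this result. Of the members, 1485 (73.7%) were in genes over 100 kb, against 51.1% of common and 62.7% of non-CIN-only regions. In genes under 20 kb, 41.3% of intronic members and 78.7% of common regions were in the first intron. In genes over 300 kb the shares were 20.0% (Wilson interval 17.1 to 23.2) and 24.6% (23.0 to 26.3). Against common regions the members' share was the lower in both of these length classes, with intervals that overlapped in the longest genes. In non-CIN-only regions the share was 34.2% under 20 kb, 38.7% from 20 to 100 kb, 32.3% from 100 to 300 kb and 20.5% over 300 kb, against 41.3, 37.5, 26.5 and 20.0% in members. Their intervals overlapped in all 4 classes, and the part of gene length in the pooled difference was not tested. The second intron held 17.6% of members, later introns other than the last 50.3% and the last intron 7.29%. Members lay at a median of 83.2 kb from the gene start, against 28.6 kb for common and 53.2 kb for non-CIN-only regions, and 899 (44.6%) were over 100 kb away. Along the gene the quartiles of their position were 26.8, 50.2 and 75.4% of its length, an even spread, and those of non-CIN-only regions were 24.6, 49.3 and 75.1%.

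**Figure D4:**
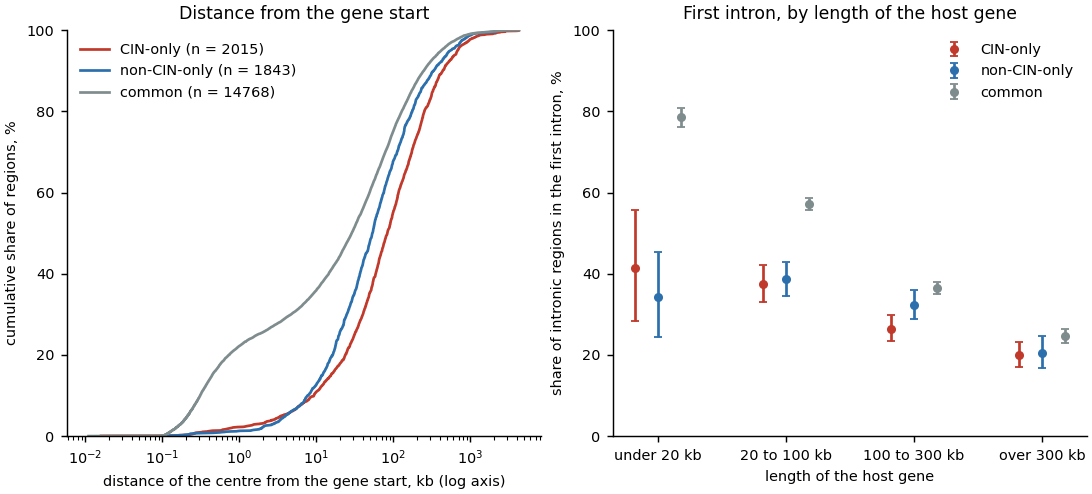
Left, cumulative share of regions (vertical axis, %) by distance of the centre from the gene start (log axis, kb). Right, share of intronic regions in the first intron with Wilson 95% intervals, by length of the host gene. CIN-only regions (red) lie farther from the gene start than common regions (grey), which have a step within the first kb, and the gap in the first-intron share narrows from genes under 20 kb to genes over 300 kb.

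To assess the sequence of the members, 11 motif cores were searched on both strands in the central 200 bp. The homeodomain, SOX and MEIS cores were chosen with the study's own motif search on peaks of the same libraries known, so their p-values are not independent evidence. The homeodomain core TAATTA, bound by DLX and LHX factors, was present in 206 members (10.2%). It was present in 4.08% of common regions (odds ratio 2.68, 2.27 to 3.16, adjusted p = 5.82e-26, Fisher's exact test over 22 tests) and in 3.64% of non-CIN-only regions (odds ratio 3.02, 2.27 to 4.01, adjusted p = 4.98e-15). The core has no G or C, and GC content moved with the classes: its median was 46% in members, 50.5% in common and 47.5% in non-CIN-only regions. Within GC quintiles the odds ratio against common regions was 1.79 (Mantel-Haenszel, 1.51 to 2.13). Several copies were found in 23 members (1.14%), among them those of *Scel*, *Crtac1* and *Adk* printed above, against 0.332% of common regions. At least 50% of the window was repeat-masked in 1.74% of members and 1.496% of common regions.

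The SOX core CTTTGT was found in 27.5% of members, against 20.4% of common regions (odds ratio 1.48, adjusted p = 4.47e-12) and 20.6% of non-CIN-only regions (odds ratio 1.47, adjusted p = 1.41e-06, Fisher's exact test). The MEIS core CTGTCA was found in 20.2%, against 13.9% (odds ratio 1.58, adjusted p = 1.36e-12) and 15.3% (odds ratio 1.41, adjusted p = 0.000175, Fisher's exact test). MEIS proteins are TALE homeodomain cofactors, and SOX proteins are HMG-box factors. At least 1 of these 3 cores was present in 956 members (47.4%), 34.1% of common and 35.8% of non-CIN-only regions. All 3 were present in 8 members (0.397%), 0.115% of common and 0.0543% of non-CIN-only regions. The *Myo3a* sequence above held 1 homeodomain and 3 MEIS cores, while 1059 members held none of the 3.

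Of 3 E-boxes, bound by basic helix-loop-helix factors, CAGATG was found in 19.8% of members, 13.2% of common (odds ratio 1.63, adjusted p = 7.19e-14) and 13.5% of non-CIN-only regions (odds ratio 1.58, adjusted p = 6.33e-07, Fisher's exact test). CAGCTG was also higher than in both classes, at 16.6% against 13.9% and 13.2% (adjusted p = 0.00272 and 0.00509, Fisher's exact test). CACCTG passed in neither comparison, at 9.83% against 10.9% (odds ratio interval 0.76 to 1.04) and 8.19% (0.98 to 1.52). The POU octamer ATGCAAAT was rare but higher in members, at 2.18% against 1.41% (adjusted p = 0.0169) and 0.977% (adjusted p = 0.00509, Fisher's exact test). AGGTCA, a core of nuclear receptor sites, was lower than in non-CIN-only regions, at 8.09% against 11.3% (adjusted p = 0.00205), with no call against common regions at 9.22% (adjusted p = 0.120, Fisher's exact test). TTGGCA, a core of NFI sites, and TGCTGA, a MAF core, passed against common regions, at 15.7% against 13.2% (adjusted p = 0.00501) and at 17.2% against 15.3% (adjusted p = 0.0446, Fisher's exact test). Neither passed against non-CIN-only regions, at 16.4% and 17.1%, and the AP-1 core TGANTCA passed in neither comparison (5.36% against 4.98% and 6.67%). Some of these calls depended on the settings. Against common regions, the NFI and MAF calls were lost within GC quintiles (odds ratios 1.08 and 1.10), for regions wholly inside the gene (1.11 and 1.07), against common regions of like strength (1.06 and 1.04) and with promoters of 2 kb (0.99 for both), and the NFI call also without replicate 1 (1.01). The POU call against common regions was lost under 6 alternatives, with adjusted p from 0.0732 to 0.598 (Fisher's exact or Mantel-Haenszel test), among them GC quintiles (1.11) and without replicate 2 (1.11). Against non-CIN-only regions it was lost with a −log10 q of at least 4 (adjusted p = 0.0612) and with 1 region for each host gene (adjusted p = 0.0787, Fisher's exact test), and its odds ratio fell from 2.26 to 1.47 without replicate 2. The AGGTCA call was lost under the same 2 settings (adjusted p = 0.118 and 0.0893, Fisher's exact test). CAGCTG lost both calls when peaks were merged with a gap of 0 bp (adjusted p = 0.0846 and 0.0789), and that against common regions with promoters of 2 kb (adjusted p = 0.0928, Fisher's exact test). Other calls were gained. Against non-CIN-only regions, CACCTG passed without replicate 1 (odds ratio 1.196) and within GC quintiles (1.36), and the NFI core passed as lower without replicate 1 (0.83). Against common regions, CACCTG passed as lower with 50% reciprocal overlap (0.74), AGGTCA as lower for whole regions (0.83) and against common regions of like strength (0.76), and the AP-1 core as higher without replicate 1 (1.19) and in the central 400 bp (1.22). The adjusted p of these 8 ran from 0.000655 to 0.0490 (Fisher's exact or Mantel-Haenszel test).

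**Figure D5:**
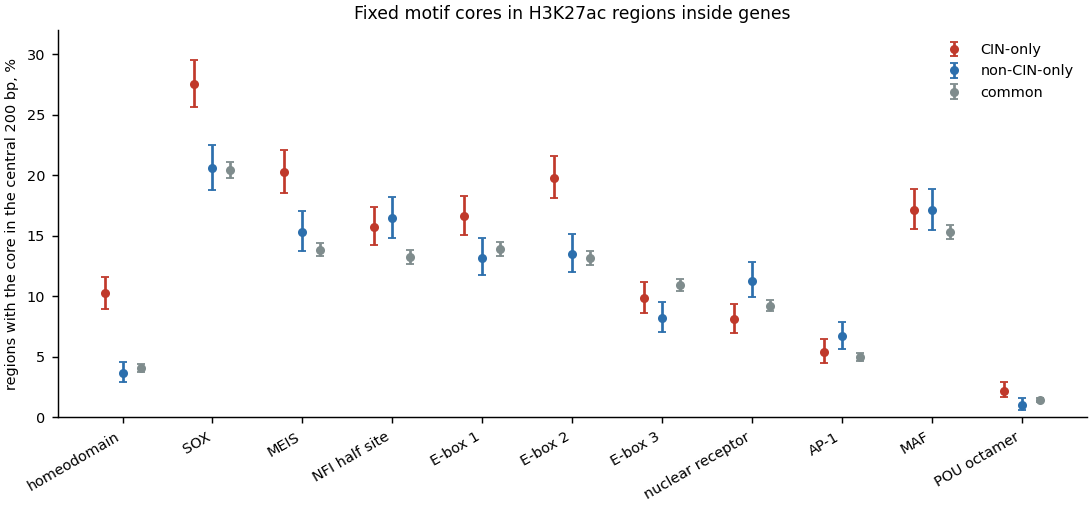
Share of regions with each of 11 motif cores in the central 200 bp (vertical axis, %), with Wilson 95% intervals, for CIN-only (red), non-CIN-only (blue) and common (grey) regions inside genes, where E-box 1 is CAGCTG, E-box 2 is CAGATG and E-box 3 is CACCTG. The homeodomain core reaches 10.2% in CIN-only regions and about 4% in both other classes, and the SOX, MEIS and second E-box cores are also higher in CIN-only regions.

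The homeodomain core was then counted within subsets of the members. It was present in 12.1% of the stronger members, at or above the median of the lower percentile (Wilson interval 10.2 to 14.3), and in 8.34% of the weaker (6.79 to 10.2). It was present in 8.98% of members in the first intron (6.78 to 11.8) and 10.7% of those in other introns (9.12 to 12.4). Hosts with 1 member and hosts with 2 or more gave 8.96% and 11.3%. CIN-only regions between genes held it in 12.05% (10.7 to 13.5), close to the interval of the members inside genes of 8.98 to 11.6. Of the other cores that were higher in members than in both classes, they held SOX in 27.9% and MEIS in 18.4%. They held CAGATG in 18.6%, CAGCTG in 17.02% and POU in 3.43%. The shares in members were 27.5, 20.2, 19.8, 16.6 and 2.18%. The higher shares of these cores were thus not shown to be particular to regions inside genes. None of these differences was tested.

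Members were then sorted by what their host genes do, using fixed lists. Among 32 transcription factor genes of CINs, 13 held 34 members. *Zeb2*, a zinc finger homeodomain gene, held 5, with lower percentiles of 4.60 to 37.2. *Pbx3* and *Zfp536* held 4 each. The short DLX genes *Dlx1* and *Dlx2* held none. H3K27ac nevertheless covered 5760 bp and 5398 bp of *Dlx1* in the 2 CIN lists and 0 bp in both non-CIN lists. *Sp9*, named after its values were seen, is 12.8 kb long and held 2, at lower percentiles of 74.4 and 81.0.

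Of 20 GABA genes, 6 held 7 members. *Gabra2* and *Gabra4*, subunits of ionotropic GABA receptors, held 1 each, at lower percentiles of 0.677 and 43.0, and *Gabbr2* held the member described above. *Gad2*, which encodes a GABA-synthesizing enzyme, held 1 in intron 7 at percentiles of 23.2 and 8.0. *Gad1* held none that met the rule, with H3K27ac over 11344 bp and 9187 bp of the gene in CINs and 219 bp and 0 bp in non-CINs. Of 22 interneuron subtype genes, *Adarb2*, an RNA-editing family member, held 4, and *Reln*, the secreted protein of Cajal-Retzius cells and some interneurons, held 3. *Adarb2* members ran from 19.1 to 71.4 in lower percentile, all in intron 1, and those of *Reln* from 8.07 to 20.4.

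Migration and guidance genes numbered 36, of which 17 held 46 members. *Plxna4*, a semaphorin receptor, held 7, all in the same intron and within 93.2 kb. *Slit1*, a ligand of Robo receptors, held 6 and no common region. *Plxna2* held 5, and *Erbb4*, the neuregulin receptor of interneurons, and *Kirrel3*, a cell adhesion gene, held 4 each. Of 29 synaptic adhesion and scaffold genes, 17 held 45 members, led by *Nrxn3*, with *Ctnna2* and *Ptprd* at 4 each and *Cntnap2*, *Dlgap1* and *Shank2* at 3. Of 38 ion channel and glutamate receptor genes, 22 held 50. *Cacna2d3* was followed by *Cacna1c*, a pore-forming calcium channel subunit, with 6, and by *Kcnip1*, a potassium channel interacting protein, with 4 and no common or non-CIN-only region. Among genes over 100 kb, a member was present in 55.2% of the migration list, 73.7% of the synaptic list, 60.0% of the channel list, 3 of 10 GABA genes, 9 of 11 CIN transcription factor genes and 2 of 5 interneuron subtype genes, and in 3 of 6 glutamatergic markers and 0 of 5 markers of glia and vessels, against 33.2% of all 2492 protein-coding genes of that length. The lists were described and not tested, and their genes over 100 kb were not matched for length to the rest.

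*Myo3a*, the neighbor of *Gad2*, held 2 members, the strongest of all and one in intron 3 at percentiles of 72.5 and 56.9. No peak of either non-CIN list lay within the span of *Myo3a* or *Gad2*, although non-CIN replicate 2 had one at a *Gad2* promoter. Of the genes the study names, *Arl4d*, a small GTPase gene of 2.29 kb, held no member. The *Arl4d* element that the study tested lies downstream of the gene, so this does not bear on it. *Dlgap1*, a postsynaptic scaffold gene, held 3 members in its first intron, at 1.37, 53.7 and 66.3 kb from the gene start. Their lower percentiles were 13.6, 24.2 and 19.8, beside 2 non-CIN-only and 10 common regions. These members were weaker than the median of common regions.

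H3K27me3, which the rule did not use, was listed in at least 1 of its 4 lists at 162 members (8.04%), against 5.27% of the 18920 regions inside genes that both CIN lists shared. In CINs, a peak of that mark overlapped 66 (3.28%) members in the replicate 1 list and 102 (5.06%) in that of replicate 2, against 2.23% and 3.66% of the shared regions. In non-CINs it overlapped 105 (5.21%) and 143 (7.10%), against 2.73% and 3.28%. The share was thus higher in members than over the shared regions in each list, and this difference was not tested. It was in all 4 lists at 57 members, 245 of the 18920 shared regions and 114 of the 14768 common regions. It marked 7 members (0.347%) in both lists of non-CINs but in none of CINs, against 0 for the reverse. The background over the shared regions was 22, or 0.116%, with 57 in the reverse direction. With replicate 1 alone, 43 members had the mark in non-CINs only and 4 in CINs only, against 224 and 129 of the shared regions. With replicate 2 alone these were 47 and 6, against 157 and 229. The count of 7 fell to 3 when 50% of the member had to be covered and when H3K27me3 peaks needed a −log10 q of at least 4, with 0 for the reverse in both. These counts are a description, since members are not replicates of a population and 2 lists on each side allow no exact p under 0.333. The non-CIN H3K27me3 lists held more peaks than the CIN lists, 45081 and 42575 against 38158 and 36662, and the part of this in the counts was not tested.

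Of the 7 members, that in *Hivep3*, a zinc finger gene, had H3K27me3 at percentiles of 62.5 and 90.1 of the non-CIN lists and H3K27ac at 49.3 and 64.0 of the CIN lists. *Scube2*, which encodes a secreted protein of the hedgehog pathway, followed with H3K27me3 at 42.9 and 43.9. The members in *Sez6*, a neuronal membrane protein gene, *Kif5a*, a neuronal kinesin, and *Sik1*, a salt-inducible kinase, had H3K27me3 at lower percentiles of 31.6, 24.3 and 20.7. That of *Kif5a* lay in a coding exon 0.57 kb from the gene start, with H3K27ac at percentiles of 88.2 and 61.5.

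Promoters of the host genes carried H3K27ac in most cases. All 4 lists had a peak at the promoters of 535 of 904 hosts with 1 member (59.2%) and 246 of 388 hosts with 2 or more (63.4%), against 46.5% of all protein-coding genes. A peak in CINs alone, in both replicates, was found at 23 (2.54%) and 19 (4.90%) of them, against 0.679% of all genes, so few hosts had a promoter with the pattern of their members. For H3K27me3 at promoters, 5 hosts with 1 member had a peak in both non-CIN lists only and 12 in both CIN lists only. For hosts with 2 or more these numbers were 2 and 3, and over all 21951 protein-coding genes 53 and 92. With replicate 1 alone the direction was opposite, with 56 against 31 hosts of 1 member and 29 against 14 of the others, and it turned likewise over all protein-coding genes, at 525 against 388. With replicate 2 alone the numbers were 31 against 30, 22 against 16 and, over all genes, 346 against 424. No direction was called.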

How the data were processed

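Native ChIP-seq for H3K27ac and H3K27me3 was analysed in CINs and non-CINs (2 biological replicates each, 8 peak lists), and the 4 inputs served only in peak calling. Alignment to mm10 with BWA and broad peak calling per replicate against input with MACS2, without pooling, were done by the authors. The submitters' notes give MACS2 2.2.7, and the methods of the study another version. The deposited score is a scaled −log10 q. The deposited fold enrichment is a ratio of ChIP to input signal, and −log10 p and −log10 q are the authors' peak-caller values. Only peaks past the authors' thresholds are listed, and read depth was not used here, so a missing peak means that none was called. Intervals cover counting error over regions only.

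Peaks were ranked by fold enrichment as a percentile of their own list, and a merged peak kept the highest. Regions overlapped from 1 bp. Common regions were in all 4 lists. The host was the longest protein-coding gene over the centre (GENCODE vM21 basic, predicted and readthrough genes last), introns were those of its longest coding transcript there, and distances run from the 5′ end of the gene. Promoter calls used any TSS of a gene. Sequences came from GRCm38.p6. Named genes were the 10 hosts with most members, the 10 strongest members, the 5 densest hosts, 5 members with H3K27me3 in non-CINs only, the 4 genes of each fixed list with most members (with ties), those named by the study and *Myo3a* beside *Gad2*. Some genes that met this rule are not reported here. The members and lists were chosen with earlier results of these data known.

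Two-sided Fisher's exact tests across regions were adjusted by the Benjamini-Hochberg method over 22 motif and 4 position tests. Exact McNemar tests had been fixed for H3K27me3, but they take regions or genes as replicates of the populations, so counts are given without their p-values. With 2 lists on each side, no exact test over samples can give a p under 0.333. Alternatives were other merging gaps, reciprocal overlap, each replicate alone, a −log10 q of at least 4, no replicate block, other promoters, whole regions inside genes, 1 region per gene, common regions of like strength, a 400-bp window and GC quintiles. The steps ran in Python 3.11.15 with pysam 0.24.0, SciPy 1.17.1, NumPy 2.4.6 and matplotlib 3.10.9 and were tested on simulated data.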

Additional observations from a re-analysis of the deposited data

How the results depend on the processing

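No alternative changed the direction or the call of the first-intron share or of the shares with the homeodomain, SOX and MEIS cores against common regions. A reciprocal overlap of 50% between the replicates left 1067 members in 818 hosts, 54 of them with 3 or more, and a −log10 q of at least 4 left 104 hosts with 3 or more. Leaving out a replicate gave 4958 to 9603 regions in 2725 to 3810 hosts, 488 to 1073 of them with 3 or more, since 1 list on each side then decided. With no replicate block there were 2272 members in 1415 hosts, 193 of them with 3 or more, and odds ratios of 0.48 for the first intron and 2.60 for TAATTA. Same-numbered CIN and non-CIN lists deviated together with a correlation of 0.0399 over 70293 regions, so the numbers were not shown to pair the samples.

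H3K27me3 in both non-CIN lists only was found at 3 members with 50% cover and at 3 with a −log10 q of at least 4, and at 43 to 47 with a replicate left out. At promoters of hosts with 1 member the direction turned with a window of 2 kb (13 against 8) and with a replicate left out (31 to 56), and at hosts with 2 or more likewise (11 against 6, and 22 to 29). Over all protein-coding genes, 53 against 92 with both replicates became 525 against 388 with replicate 1 alone and 346 against 424 with replicate 2 alone. The cause was not tested.

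Odds ratios that changed sides without a call were, against common regions with promoters of 2 kb on both sides, 0.99 for TTGGCA (called in the report), 1.02 for CACCTG, 0.91 for TGANTCA and 0.99 for TGCTGA (called in the report). Within GC quintiles they were 1.148 for CACCTG and 0.92 for TGANTCA. The AP-1 core gave 0.99 for whole regions and 0.96 for common regions of like strength, and AGGTCA 1.06 with 1 region for each host gene. Against non-CIN-only regions, TGCTGA gave 0.95 with a gap of 0 bp and 0.97 with no replicate block. Without replicate 1, TGANTCA gave 1.07 and the exon share 1.01. Of the single position and motif comparisons, 23 lost a call and 10 gained one in the same direction under an alternative. Depth behind single peaks is unknown, and the number of lists limits what can be said of the populations.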
